A study of Mus musculus with 4 samples.

Results

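The clusters described here lay outside every annotated gene of their own strand. They were taken from eCLIP-seq of IGF2BP3 in mouse testis, as the clusters whose centre lay in no gene span of GENCODE M21 (basic set, mm10) on the same strand. This rule kept 527 of 553588 clusters, 328 of 337234 in replicate 1 and 199 of 216354 in replicate 2. The members fell into 3 classes. Those inside a gene of the other strand numbered 70 in replicate 1 and 46 in replicate 2. Those whose centre lay within 5000 bases downstream of a same-strand gene end numbered 132 and 98, and the rest numbered 126 and 55. All the other clusters, 336906 and 216155, had their centre inside a same-strand gene.

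The testes came from wild-type C57BL/6 mice 8 weeks old and held germ cells and somatic cells. A pair of testes was dissociated and irradiated with UV light, which links proteins to the RNA they touch. RNA bound by IGF2BP3 was then immunoprecipitated with an antibody (IP), while the matched SMInput was kept back from the same lysate without antibody. Each of the 2 replicates had 1 IP and 1 SMInput library. The study calls them biological replicates, and the labels do not say whether they came from separate animals. The series description speaks of an IgG control and of more replicates, whereas the samples analysed here were IP and SMInput in 2 replicates.

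IGF2BP3 belongs to a family of RNA-binding proteins with RNA recognition motifs and KH domains. It reads N6-methyladenosine, binds mRNA mostly in 3′ untranslated regions (3′UTRs), and affects how stable an mRNA is and how much of it is translated. In the testis its RNA targets matter because late germ cells store mRNA for later use. A cluster of eCLIP reads marks a stretch where the IP library had more reads than its surroundings. Clipper, the program that found the clusters, searches inside gene models, and which gene models it was given is not stated in the sources used here. The members may therefore be places where those gene models reached beyond GENCODE M21, which was not tested. The space far from any gene model was not measured.

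A cluster was counted as significant at a deposited log2(fold change) of IP over SMInput of at least 2 and a deposited −log10(P value) of at least 2. In replicate 1, 26 of the 328 members were significant, 7.93% (95% Wilson interval 5.47 to 11.4), beside 4.92% of all clusters. In replicate 2, 45 of the 199 members were significant, 22.6% (17.4 to 28.9), beside 13.2% of all clusters. The share was thus above that of all clusters in both replicates, and the intervals cover counting error only, since neighbouring clusters of a transcript are not independent. Without a single locus on chromosome 3 (chr3:40853560-40854109), described below, 21 of 323 members were significant in replicate 1, 6.5% (4.29 to 9.73), and 41 of 195 in replicate 2, 21% (15.9 to 27.3). The interval of replicate 1 then held the share of all other clusters, 4.91%, so the excess in that replicate rested in part on this locus, while that of replicate 2 stayed above 13.2%. Inside genes of the other strand, 14 of 70 clusters were significant in replicate 1, 20% (12.3 to 30.8), and 11 of 46 in replicate 2, 23.9% (13.9 to 37.9). Without the locus on chromosome 3, the counts in this class were 9 of 65, 13.8% (7.46 to 24.3), and 7 of 42, 16.7% (8.32 to 30.6). Downstream of same-strand genes, the counts were 10 of 132, 7.58% (4.17 to 13.4), and 28 of 98, 28.6% (20.6 to 38.2). In the rest they were 2 of 126, 1.59% (0.436 to 5.6), and 6 of 55, 10.9% (5.1 to 21.8). The rest was the class with the lowest share in both replicates. The intervals for downstream clusters in replicate 1, for the rest in both replicates and, without the locus on chromosome 3, for other-strand clusters in replicate 2 spanned the share of all clusters. No test between classes was made.

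Most members rested on few reads. Whole read numbers could be worked back from the deposited values for 304 members in replicate 1 and 188 in replicate 2. Their median was 4 IP reads and 2 SMInput reads in replicate 1, and 4 and 4 in replicate 2. All clusters had medians of 4 and 2 reads in replicate 1 and of 4 and 6 in replicate 2, so the members were about as shallow as the others. Among the significant members, 12 of 26 in replicate 1 (46.2%) and 26 of 45 in replicate 2 (57.8%) had fewer than 10 IP reads, beside 29.1% and 62.0% of all significant clusters. A single SMInput read stood behind 7 of the 26 (26.9%) and 13 of the 45 (28.9%), beside 22.9% and 25.9%. With 1 SMInput read, a cluster needed at least 7 IP reads to be significant in replicate 1 and at least 4 in replicate 2. The library totals that fitted the deposited values were 5133438 IP and 8706391 SMInput reads in replicate 1, and 4637612 and 16696122 in replicate 2. With the deeper SMInput of replicate 2, fewer IP reads were thus enough.

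The median log2(fold change) of the members was 2.18 in replicate 1 and 2.04 in replicate 2, above the 1.5 and 1.53 of all clusters. At 5 to 9 reads of IP and SMInput together, which held the most members, 3 of 159 were significant in replicate 1, 1.89% (0.644 to 5.4), beside 1.74% of all clusters of that depth, and 17 of 78 in replicate 2, 21.8% (14.1 to 32.2), beside 15.3%. The intervals held the share of all clusters in both replicates. At 10 to 19 reads, 16 of 54 members were significant in replicate 1, 29.6% (19.1 to 42.8), beside 14.2% of all clusters of that depth. In replicate 2 the same depth gave 12 of 50, 24.0% (14.3 to 37.4), beside 15.4%. At 20 reads or more, 7 of 22 members were significant in replicate 1, 31.8% (16.4 to 52.7), beside 17.6%, and 16 of 38 in replicate 2, 42.1% (27.9 to 57.8), beside 16.0%. The interval held the share of all clusters for 20 reads or more in replicate 1 and for 10 to 19 reads in replicate 2. At 20 reads or more, 5 of the 7 and 4 of the 16 belonged to the locus on chromosome 3. Without it, 2 of 17 were significant in replicate 1, 11.8% (3.29 to 34.3), below the share of all clusters, and 12 of 34 in replicate 2, 35.3% (21.5 to 52.1).

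The members were not spread evenly over the genome. Joined where they lay within 5000 bases of each other on a strand, the 527 members made 158 loci, and the 5 largest loci held 111 of them, 21.1%. A cluster of both replicates was present at 59 loci, a significant cluster at 42, and a significant cluster of each replicate at 9. In the same replicate and strand, 144 members directly touched another member, so that many clusters are pieces of a single stretch of reads. In replicate 1, 73 of 328 members overlapped a cluster of replicate 2, 22.3% (18.1 to 27.1), beside 24.9% of all clusters. In replicate 2, 73 of 199 members overlapped a cluster of replicate 1, 36.7% (30.3 to 43.6), beside 37.3%. Over all members the intervals held the share of all clusters, but the classes went different ways. Other-strand members overlapped in 34.3% (24.2 to 46) in replicate 1 and 54.3% (40.2 to 67.8) in replicate 2, downstream members in 24.2% (17.7 to 32.2) and 32.7% (24.2 to 42.4), and the rest in 13.5% (8.6 to 20.5) and 29.1% (18.8 to 42.1). The interval lay above the share of all clusters for other-strand members in replicate 2 and below it for the rest in replicate 1. The 81 overlapping pairs of members had a log2(fold change) above 0 in both replicates in 63 cases, and the median absolute difference between the replicates was 0.65.

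Stretches that were significant in both replicates, with at least 1 base in common, numbered 7. They comprised 4 inside genes of the other strand, 3 downstream of same-strand genes and 0 in the rest. Of the significant members, 8 of 26 in replicate 1 overlapped a significant cluster of replicate 2, 30.8% (16.5 to 50), where the share over all significant clusters was 33.0%. In the other direction it was 8 of 45, 17.8% (9.29 to 31.3), where the share over all was 18.5%.

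The locus with the most significant clusters lay on the minus strand at chr3:40853560-40854109 (mm10). All 9 of its clusters were significant, 5 in replicate 1 and 4 in replicate 2, and 8 of them, 4 of each replicate, made 3 of the 7 shared stretches. The locus lies in introns of Abhd18, a protein-coding gene of the plus strand, and of the plus-strand pseudogene Gm2011. The nearest cluster centre lies 618 bases past the GENCODE end of Gm10731, a processed pseudogene of the minus strand at chr3:40854676-40855123. RefSeq describes Gm10731 as a transcribed pseudogene that runs from chr3:40853476 to 40855285, and all 9 clusters lay in its exon there. The GENCODE span of Gm10731 held 0 clusters in either replicate, so the clusters found lay only in the part that RefSeq adds. Whether reads from the GENCODE span were placed elsewhere was not tested. Of the 14 significant other-strand clusters of replicate 1, 6 had centres whose 30 bases occur more than once in the genome, and these include clusters of this locus. In replicate 2 it was 1 of 11, the stretch on chromosome 14 described below. Over all other-strand clusters it was 22 of 70 in replicate 1 and 5 of 46 in replicate 2. How reads were placed among such copies was not tested.

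Read numbers at this locus were among the highest of all significant members. At chr3:40853960-40854102 of replicate 2, 49 IP reads stood against 10 SMInput reads, with a log2(fold change) of 4.14 and a −log10(P value) of 28.69, the highest of any significant member. In replicate 1 the same stretch was split into chr3:40853937-40854007, with 25 IP and 8 SMInput reads and a log2(fold change) of 2.41, and chr3:40854008-40854109, with 44 and 11 reads and a log2(fold change) of 2.76. At chr3:40853571-40853639 of replicate 1, 39 IP reads stood against 10 SMInput reads (log2(fold change) 2.73). At chr3:40853560-40853639 of replicate 2 the numbers were 26 and 14 (log2(fold change) 2.74). This end of the locus therefore gave nearly the same enrichment in both replicates. The middle stretch, chr3:40853735-40853847, had 23 IP and 7 SMInput reads in replicate 1 and its highest log2(fold change) was 2.48 in replicate 1 and 2.35 in replicate 2. Abhd18 itself, which encodes a protein of the alpha/beta hydrolase fold family, had 46 clusters on its own strand in replicate 1, of which 1 was significant, and 11 in replicate 2, of which 0 were. No cluster of the plus strand covered the same bases as these members.

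The 30 bases at the middle of each of the 3 shared stretches are printed 5′ to 3′ on the minus strand, because this locus held the most significant clusters. Capitals mark bases that match CACA, the motif GAACA, the motif AAACC or the m6A consensus DRACH.
chr3:40853591-40853620: gcaaaGGACAagctcagcactgggatgcta
chr3:40853758-40853787: gtttggtttcctgcatcagggcctcatctt
chr3:40854017-40854046: actcCACAgctatactcttagctttttggg
A match was present in 2 of the 3 windows, and a window without capitals shows only that these letters are not in its 30 bases.

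The fourth shared stretch inside a gene of the other strand was chr14:6697258-6697322 on the minus strand, in an intron of the plus-strand transcript Gm26680. It had 15 IP reads and 1 SMInput read in replicate 1 (log2(fold change) 4.67) and 11 and 1 in replicate 2 (log2(fold change) 5.31), the largest of any member in replicate 2 and, with a cluster past Slf2, in replicate 1. All of its bases are soft-masked repeats in the reference, and the 30 bases around the centres occur 85 times (replicate 1) and 82 times (replicate 2) in the genome. How the reads were placed among these copies was not tested, so its position is uncertain. The next gene end on its strand, that of Gm8050, lies 14893 bases away. Repeats also filled significant clusters of a locus of 16 members on the minus strand at chr8:20328781-20336622, inside the plus-strand gene Gm26804. There, 2 clusters were significant, both in replicate 1, and the 30 bases at their centres occur 125 and 213 times.
chr14:6697275-6697304: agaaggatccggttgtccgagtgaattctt
This window, on the minus strand and with the same use of capitals, held no match.

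Many members of this class lay past a gene that ends inside a gene of the other strand. Of the significant clusters inside other-strand genes, 11 of 14 in replicate 1 and 9 of 11 in replicate 2 lay within 5000 bases past a same-strand gene end as well, beside 41 of all 70 and 29 of all 46 in this class. These counts include the 5 and 4 clusters of the locus on chromosome 3. Past Slf2, which helps to bring the SMC5/6 complex to damaged DNA, chr19:44983400-44983485 had 25 IP and 5 SMInput reads in replicate 1 (log2(fold change) 3.08). The touching cluster chr19:44983486-44983537 had 15 reads and 1 read (log2(fold change) 4.67). Replicate 2 had 1 cluster past the end of Slf2, which was not significant. Past Ammecr1l, 3 of 5 clusters were significant in replicate 1 and 0 of 3 in replicate 2. Past Crbn, which encodes cereblon, the substrate receptor of a ubiquitin ligase, 1 of 4 clusters was significant in replicate 1 and 0 of 3 in replicate 2. In replicate 2, single significant clusters lay past Atxn7l1 and past Bbip1, a subunit of the BBSome of cilia. Past their ends, these genes had significant clusters in a single replicate, and with the few reads involved a difference between the replicates was not tested. Within their spans, Slf2, Ammecr1l, Crbn and Atxn7l1 had significant clusters in both replicates, and Bbip1 in replicate 2.

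Nearly all other-strand members lay in introns of the other gene, 64 of 70 in replicate 1 and 43 of 46 in replicate 2. The gene was protein-coding for 37 of 70 and for 28 of 46. A cluster of the other gene's own strand covered the same bases at 2 members in replicate 1 and 0 in replicate 2, and 0 of these were significant. Signal on both strands at the same place was therefore rare. The other-strand genes were Abhd18, Gm2011 and Gm26680 where a significant member was present in both replicates.

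The members with the most reads were hardly enriched. On the plus strand at chr7:130834468-130834475, inside an intron of Fgfr2, a receptor for fibroblast growth factors on the minus strand, replicate 1 had 2938 IP and 4402 SMInput reads (log2(fold change) 0.18). Just beside it, replicate 2 had 2523 and 7111 reads at chr7:130834439-130834449 (log2(fold change) 0.35), its highest IP number among the members, and 2281 and 5378 at chr7:130834467-130834474 (log2(fold change) 0.61). The latter's −log10(P value) of 64.50 was the highest of all members, at a ratio well below the threshold. On the minus strand at chr5:17776757-17776777, 4923 bases past Cd36, a fatty acid transporter, replicate 2 had 631 IP and 2091 SMInput reads (log2(fold change) 0.12). None of these clusters was significant. They show that stretches with many reads in the SMInput passed the search for clusters and were held back by the fold change.

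Downstream of same-strand genes, the significant clusters lay past 9 genes in replicate 1 and past 21 in replicate 2. Protein-coding genes accounted for 8 of the 10 significant clusters in replicate 1 and 21 of the 28 in replicate 2, beside 87 of the 132 and 75 of the 98 downstream clusters, and pseudogenes for 2 and 6, beside 34 and 21. Shared stretches were found past Pcm1, Tsga10 and Pdzd8. The clusters of both replicates had 25.5%, 41.7% and 71.8% of the longer cluster in common, so that only Pdzd8 remained when at least 50% of both clusters had to overlap.

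Pcm1 encodes a scaffold protein of the centriolar satellites. Past its end at chr8:41332344 on the plus strand, 9 clusters lay in replicate 1 and 7 in replicate 2, of which 1 and 4 were significant. The shared stretch chr8:41333663-41333807, 1391 bases past the end, had 37 IP and 32 SMInput reads in replicate 2 (log2(fold change) 2.06), and within it chr8:41333736-41333772 had 15 and 6 in replicate 1 (log2(fold change) 2.08). The other 3 significant clusters of replicate 2 had 25 against 19, 28 against 20 and 13 against 10 reads, with log2(fold change) from 2.23 to 2.33. Inside the gene span, 2 of 126 clusters were significant in replicate 1 and 6 of 94 in replicate 2. Pcm1 was named for its significant clusters past the end, so the shares past the end and within the gene are not compared.

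Tsga10 encodes a testis-specific protein of the sperm tail. On the minus strand, 1 of 2 clusters past its end was significant in replicate 1 and 1 of 1 in replicate 2. At chr1:37754653-37754712, replicate 1 had 11 IP and 4 SMInput reads (log2(fold change) 2.22), and at chr1:37754683-37754754, replicate 2 had 13 and 7 (log2(fold change) 2.74). Pdzd8 encodes a protein of the endoplasmic reticulum that carries lipids at contacts with other membranes. At chr19:59296862-59296912 on the minus strand, 291 bases past its end, replicate 1 had 8 IP and 2 SMInput reads (log2(fold change) 2.76). At chr19:59296847-59296917, replicate 2 had 9 and 5 (log2(fold change) 2.7). Pdzd8 also had 5 significant clusters within its span in each replicate (of 46 and 29 clusters). Both genes passed the thresholds in both replicates, at low read numbers. With P values adjusted over all clusters of a replicate to a false discovery rate of at most 5%, the shared stretches past Pcm1, Tsga10 and Pdzd8 stayed significant in replicate 2 and 0 of the 3 did in replicate 1, whereas all 4 stretches inside other-strand genes stayed significant in both.

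The 30 bases at the middle of what the replicates shared past Pcm1 and Tsga10 are printed 5′ to 3′ on the strand of the gene, with capitals for the same motifs.
Pcm1, chr8:41333740-41333769: ttattTGACTtatgtcctacctgctatctc
Tsga10, chr1:37754683-37754712: ccctcacctgcatctctgcatcttttctgt
The window of Pcm1 held a DRACH match, and that of Tsga10 held none of the motifs. All bases of the Pdzd8 clusters are soft-masked as repeats.

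Past Elavl1, Cmip and Zfp830, clusters of both replicates were significant but did not overlap. Elavl1 encodes HuR, a protein that binds AU-rich mRNA. On the minus strand, chr8:4285100-4285115 had 7 IP reads and 1 SMInput read in replicate 1 (log2(fold change) 3.57), and chr8:4285148-4285246 had 17 and 14 in replicate 2 (log2(fold change) 2.13). The gene's own span held 6 significant clusters of 35 in replicate 1 and 7 of 34 in replicate 2. Cmip encodes a signalling adaptor. It had 5 clusters past its end in replicate 1, 1 of them significant, and 6 in replicate 2, 2 of them significant, while within its span 0 of 59 and 3 of 24 were. Zfp830, a zinc finger gene, had 2 significant clusters of 2 in replicate 1 and 1 of 2 in replicate 2. At chr11:82766035-82766078 on the plus strand, 7 IP reads stood against 1 SMInput read in replicate 2 (log2(fold change) 4.66). Its span held 4 clusters in replicate 1 and 1 in replicate 2, of which 0 were significant.

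The windows at the significant clusters of Elavl1 and Zfp830 with the highest fold change of each replicate are printed in the same way. They lie at different positions of each gene, so their sequences differ by position. Over the Zfp830 window of replicate 1, replicate 2 also had a cluster, chr11:82766750-82766815 (log2(fold change) 1.53), which was not significant.
Elavl1, chr8:4285093-4285122, replicate 1: gtgaatattttttgtcaatggctttctcaa
Elavl1, chr8:4285183-4285212, replicate 2: aagaaaaaagcAAACCtagattttgataat
Zfp830, chr11:82766769-82766798, replicate 1: actatgtagtgAGACCttgtctaaaataaa
Zfp830, chr11:82766042-82766071, replicate 2: gAAACTtttgattgttcatggaatgtcaaa
A match was present in 3 of these 4 windows, all but that of Elavl1 in replicate 1.

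Further genes had significant clusters past their ends in a single replicate. Past Rbm46, an RNA-binding protein that germ cells need for meiosis, all 3 clusters of replicate 2 were significant, with 14 IP against 10 SMInput reads at chr3:82836703-82836754 (log2(fold change) 2.33), and replicate 1 had 0 clusters. Past Ppp2cb, which encodes a catalytic subunit of protein phosphatase PP2A, chr8:33619469-33619528 had 12 IP and 3 SMInput reads in replicate 1 (log2(fold change) 2.76). Past Strn3, a striatin that binds PP2A, chr12:51609384-51609440 had 12 and 8 reads in replicate 2 (log2(fold change) 2.43). Past Lin7a, a scaffold protein of cell junctions, chr10:107424829-107424908 had 7 reads and 1 read in replicate 2 (log2(fold change) 4.66), and it was the farthest of the significant downstream clusters of replicate 2, 3394 bases past the gene end. Past Atg2b, a lipid transporter of autophagy, 1 of 3 clusters of replicate 2 was significant. Btrc, Cdyl2, Anln, Pias2 and Prelid3a likewise had 1 significant cluster each in replicate 2. That of Btrc had 4 IP reads and 1 SMInput read, 82.4% of its bases are soft-masked, and the 30 bases at its centre occur 600 times in the genome, the most of any significant member, so its position is uncertain. Among pseudogenes, Ptges3-ps had the most reads. At chr6:85844602-85844697 on the plus strand it had 53 IP and 40 SMInput reads in replicate 2 (log2(fold change) 2.25), and at chr6:85844604-85844695 it had 42 and 25 in replicate 1 (log2(fold change) 1.51), short of the threshold. The 30 bases at these centres occur 2 times in the genome.

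Most of the downstream members lay in genes as RefSeq draws them. A same-strand RefSeq gene held the centre of 108 of 132 downstream clusters in replicate 1, 81.8% (74.4 to 87.5), and of 84 of 98 in replicate 2, 85.7% (77.4 to 91.3). In 87 and 76 cases it was the gene whose GENCODE end lay before the cluster. The position was a RefSeq 3′UTR for 77 and 67 downstream clusters, and for 8 of the 10 and 22 of the 28 significant ones. Among other-strand members, a RefSeq 3′UTR held 23 of 70 and 17 of 46, and a non-coding exon held 10 and 10. Over all 3 classes, 38 of the 71 significant members of both replicates lay in a RefSeq 3′UTR, and 10 lay in no RefSeq gene of their strand. Among all members, a RefSeq 3′UTR held 104 of 328 in replicate 1 and 87 of 199 in replicate 2. Outside GENCODE M21 and RefSeq together, 88 of the 328 members were left in replicate 1 and 37 of the 199 in replicate 2. Of these, 4 and 6 were significant. RefSeq alone was no wider, since 4429 and 2497 clusters lay outside its same-strand genes, all but 88 and 37 of them inside a GENCODE gene. The label of the members thus holds for GENCODE M21 and, for most of them, not for RefSeq.

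RefSeq ended well beyond GENCODE at these genes. Clusters lay within 5000 bases past the end of 57 protein-coding genes. For 47 of them the same gene in RefSeq ran on and held such a cluster, by 46 to 6060 bases with a median of 1590. Its name was the same except for Hist1h3h, which RefSeq names H3c10. All 21 protein-coding genes with a significant cluster past the end were among them, with 205 to 5677 bases and a median of 1340. RefSeq was longer by 1744 bases at Pcm1, 206 at Tsga10, 1094 at Pdzd8, 601 at Elavl1, 2076 at Cmip, 1687 at Zfp830 and 707 at Rbm46. A poly(A) signal, AATAAA or ATTAAA, stood in the last 50 bases before the GENCODE end of 8 of the 21 genes, 38.1% (20.8 to 59.1). The share was 71.9% of the 21938 protein-coding genes of GENCODE that were searched, out of 21951. Before the RefSeq end a signal stood in 18 of the 21, 85.7% (65.4 to 95), beside 72.0% of the 21774 protein-coding genes of RefSeq that were searched. Pcm1, Tsga10, Pdzd8 and Elavl1 had a signal before both ends, whereas Cmip, Rbm46, Strn3 and Slf2 had it only before the RefSeq end. These ends were compared because the clusters lie between them, so the choice of genes is not independent of where RefSeq ends.

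Clusters in these added 3′UTRs were set beside clusters in annotated 3′UTRs. Of the members in a RefSeq 3′UTR, 14 of 104 were significant in replicate 1, 13.5% (8.19 to 21.3), and 24 of 87 in replicate 2, 27.6% (19.3 to 37.8). Of the clusters in a GENCODE 3′UTR of a same-strand gene, 7012 of 35774 were significant in replicate 1, 19.6%, and 10264 of 29363 in replicate 2, 35.0%. In introns the shares were 1.96% and 10.8%. The intervals of the members in RefSeq 3′UTRs held the 3′UTR share and lay above the intron share in both replicates. Their median read numbers were 5 IP and 2 SMInput reads in replicate 1 and 5 and 5 in replicate 2, beside 8 and 4 and 8 and 8 for annotated 3′UTRs and 4 and 2 and 4 and 3 for introns. They overlapped a cluster of the other replicate in 26.9% (19.3 to 36.2) and 32.2% (23.3 to 42.6), between the 44.3% and 52.0% of annotated 3′UTRs and the 7.17% and 13.3% of introns. In overlap the members thus lay between both kinds of cluster, and in median SMInput reads they equalled introns in replicate 1. In the same genes, up to the GENCODE end, 32 of 142 3′UTR clusters were significant in replicate 1, 22.5% (16.4 to 30.1), and 52 of 120 in replicate 2, 43.3% (34.8 to 52.3). Of the members in the RefSeq 3′UTR of the gene whose end lay before them, 14 of 95 were significant in replicate 1, 14.7% (8.99 to 23.2), and 24 of 82 in replicate 2, 29.3% (20.5 to 39.9). This interval held the share of the same genes in replicate 1 and lay below it in replicate 2.

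Members in RefSeq introns or in no RefSeq gene had lower shares in both replicates than those in RefSeq 3′UTRs, with overlapping intervals and no test of the difference. In introns, 3 of 82 were significant in replicate 1, 3.66% (1.25 to 10.2), and 4 of 37 in replicate 2, 10.8% (4.29 to 24.7). With no RefSeq gene, the counts were 4 of 88, 4.55% (1.78 to 11.1), and 6 of 37, 16.2% (7.65 to 31.1). In both of these groups, the intervals held the share of all clusters of the replicate. In exons other than 3′UTRs, 5 of 54 were significant in replicate 1, 9.26% (4.02 to 19.9), and 11 of 38 in replicate 2, 28.9% (17 to 44.8). All 5 of replicate 1 and 4 of the 11 of replicate 2 were the clusters of Gm10731, and 2 of the 11 lay past Ptges3-ps.

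Downstream clusters were most frequent just past the gene end. The gene models that were searched are not stated, so how many bases were searched at each distance is not known. The counts by distance are therefore not shares of the bases searched. The first 500 bases held 45 of the 132 clusters in replicate 1 and 39 of the 98 in replicate 2, and 6 of the 10 and 16 of the 28 significant ones. Within 1000 bases lay 65 and 57 clusters and 8 and 22 significant ones. The median distance was 1008 and 699 bases for all downstream clusters and 283 and 320 for the significant ones. From 4001 to 5000 bases there were 12 clusters in replicate 1 and 5 in replicate 2, and 0 of them were significant. Nearest to the limit on its inner side lay clusters 4931 bases past Rnf103, 4927 past Gm49613 and 4924 past Cd36, with log2(fold change) of 2.35, 3.08 and -0.21 in replicate 1. Nearest on its outer side lay a cluster 5013 bases past Cdyl2 in replicate 2 (log2(fold change) 1.85), and clusters 5021 and 5025 bases past Gm29603 with log2(fold change) of -0.74 in replicate 2 and -0.52 in replicate 1. None of these 6 was significant, so the limit decided no call among them.

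The rest of the members had the fewest reads and mostly lay in long RefSeq transcripts. A RefSeq gene held 98 of 126 in replicate 1 and 49 of 55 in replicate 2, by its intron in 70 and 30 cases. Of these clusters, 61 and 29 lay in long non-coding RNAs, only 7 genes in all, with 30 and 15 clusters in Gm26567 alone. The largest locus of all, with 52 members on the plus strand at chr9:88601004-88637235, falls in the RefSeq long non-coding RNA Gm26567 (chr9:88599640-88637103) except for its last 2 members, which lie past the RefSeq end, and 0 of its clusters were significant. The cyclin-dependent kinase gene Cdk7, whose product is part of TFIIH, had 11 members past its end, downstream or in the rest, and 0 significant ones. The 2 significant clusters of replicate 1 each had 9 IP reads and 1 SMInput read (log2(fold change) 3.93). They lay in introns of the RefSeq transcripts Gm30340 (chr3:17784794-17784897) and Gm2716 (chr8:88082637-88082791). Replicate 2 also had a significant cluster in Gm30340, at chr3:17783672-17783724, with 4 reads and 1 read, which did not overlap that of replicate 1. The highest IP number in a significant cluster of the rest in replicate 2 was 5 reads. No stretch of the rest was significant in both replicates, and under a minimum of 10 IP reads 0 clusters of the rest were significant.

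Repeats were more frequent among the members. At least 50% of the bases were soft-masked in 85 of 328 members in replicate 1, 25.9% (21.5 to 30.9), beside 17.4% of all clusters, and in 53 of 199 in replicate 2, 26.6% (21 to 33.2), beside 17.3%. By class, the share was 34.3%, 16.7% and 31% in replicate 1 for other-strand, downstream and rest, and 32.6%, 19.4% and 34.5% in replicate 2. In soft-masked bases, downstream clusters were therefore close to all clusters, and the excess lay in the other classes. The 30 bases around the centre occurred more than once in the genome for 82 of 328 members in replicate 1, 25% (20.6 to 30), and for 38 of 199 in replicate 2, 19.1% (14.2 to 25.1). Over all clusters this share was 5.06% and 5.33%. By class it was 31.4%, 15.9% and 31% in replicate 1 for other-strand, downstream and rest, and 10.9%, 17.3% and 29.1% in replicate 2. For downstream clusters, the intervals (10.6 to 23.1 and 11.1 to 26) lay above the share of all clusters. Among the significant members it was 8 of 26, 30.8% (16.5 to 50), and 11 of 45, 24.4% (14.2 to 38.7), beside 5.11% and 6.16% of all significant clusters. The bearing of such copies on where the reads were placed was not tested. With only the clusters whose 30 bases occur once, 18 of 246 members were significant in replicate 1, 7.32% (4.68 to 11.3), beside 4.91% of all such clusters, and 34 of 161 in replicate 2, 21.1% (15.5 to 28.1), beside 13.1%. The interval then held the share of all such clusters in replicate 1 and lay above it in replicate 2. The median GC content of the members was 46.3% and 44.8%, below the 47.9% and 48.5% of all clusters, and it was 41.7% and 38.1% in the significant downstream clusters.

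Motifs were counted in the 100 bases around each centre, on the strand of the cluster, and each was matched on its own. GAACA and AAACC both fit DRACH, so every window with either of them also counts towards DRACH. DRACH was found in 77.7% (72.9 to 81.9) of the members in replicate 1 and 82.9% (77.1 to 87.5) in replicate 2, beside 82.7% and 81.6% of all clusters. CACA was found in 29.6% (24.9 to 34.7) and 27.1% (21.4 to 33.7), beside 34.0% and 32.0%. GAACA was found in 8.23% and 5.03%, beside 9.38% and 8.98%, and AAACC in 8.54% and 9.05%, beside 7.67% and 7.24%. For these 4 motifs the share of all clusters lay within the members' interval, except for DRACH in replicate 1, where it lay above. With the bases of the cluster or 200 bases in place of 100, the DRACH share of all clusters lay within the interval in replicate 1. In downstream clusters alone, GAACA was found in 8 of 132 in replicate 1, 6.06% (3.1 to 11.5), and in 1 of 98 in replicate 2, 1.02% (0.18 to 5.56), where the interval lay below the share of all clusters, which it held with 200 bases, at 11.2% (6.38 to 19) beside 17.9%, but not with the bases of the cluster, at 0 of 98 (0 to 3.77) beside 4.2%. Poly(A) signals were found in 9.45% (6.74 to 13.1) and 9.55% (6.2 to 14.4), beside 6.78% and 5.96%. In downstream clusters alone they were found in 16 of 132, 12.1% (7.6 to 18.8), and in 16 of 98, 16.3% (10.3 to 24.9), above the share over all clusters in both replicates.

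Few genes of any kind had a member, and lists of genes with known roles in germ cells or in somatic cells of the testis were counted beside the whole annotation. Of 90 listed genes, 1 had a member downstream or inside it on the other strand (1.11%), beside 108 of the 55450 genes of the annotation (0.195%). With a single gene, a difference from the annotation was not tested. The gene was Boll, a DAZ-family regulator of meiosis, on the list of RNA regulators, and the clusters inside it on the other strand were not significant. The list of 21 mRNAs stored in spermatids had 0 genes with a member, although 13 of them had a significant cluster within their span in each replicate. The chromatin regulators of spermatids also had 0 genes with a member, and 10 of these 15 genes had significant clusters within their spans in each replicate. The same held for 6 of 8 transcription regulators of round spermatids, 6 of 11 meiosis genes and 2 of 15 somatic cell genes, none of which had a member, and significant clusters in each replicate were present in 14 of the 20 RNA regulators. Over all lists this made 51 of 90 genes (56.7%), beside 21.9% of all protein-coding genes. The listed genes were picked for roles in the testis, with earlier results of these data known. The protein-coding genes were not limited to those active in the testis, so no excess is read from these shares. Dot1l, a histone H3 methyltransferase, had 0 members, with 9 significant clusters of 65 within its span in replicate 1 and 7 of 55 in replicate 2. Hdac11, a histone deacetylase, had 0 members as well, with 7 significant clusters of 22 and 5 of 11.

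The labelled tissue was checked by clusters inside marker genes. The 4 spermatid markers held 35 clusters in replicate 1 and 33 in replicate 2, the 3 spermatocyte markers 192 and 168, and the 3 markers of spermatogonia 59 and 47. The 3 Sertoli cell markers held 90 and 76 clusters, and the 3 Leydig cell markers 25 and 25. Long genes carried some of these sums, with 132 and 108 of the spermatocyte clusters in Sycp1 and 82 and 65 of the Sertoli cell clusters in Wt1, beside 7 and 8 in Sox9 and 1 and 3 in Amh. Significant were 0 and 0 of the spermatid, 0 and 8 of the spermatocyte, 4 and 12 of the spermatogonia, 0 and 6 of the Sertoli cell and 1 and 3 of the Leydig cell clusters. Each of these markers held at least 1 cluster in each replicate, and since whole testis was used, fewer cells of a type and less RNA per cell cannot be told apart for any member.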

How the data were processed

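The authors trimmed adapters with cutadapt (v4.5), removed ribosomal RNA reads with Bowtie2 (v2.3.5.1), aligned the rest to mm10 with STAR (v2.7.10b), collapsed PCR duplicates by molecular identifiers and called clusters with Clipper (v2.1.2) in each replicate alone. In the deposited tables, −log10 stands for the P value that the authors obtained by comparing IP with SMInput reads of a cluster, set to 0 without enrichment and never above 400. The deposited log2 values are the authors' fold changes, scaled to library totals.

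Positions were counted from 1, and 0 clusters ran past a chromosome end of GRCm38. Library totals and read numbers were worked back as the whole numbers that return both deposited values, with small numbers (a read number or expected IP number under 5) tested by Fisher's exact test and larger ones by the Yates-corrected chi-square. The tolerance on −log10(P value), 0.0001, and this rule were set after the deposited values had been seen. A single pair of numbers was found for 98.9% and 99.4% of clusters with values between the limits. The calculation was also run on simulated data, and the outcome is not reported here. Genes came from GENCODE M21 and, as an alternative, RefSeq for GRCm38. Soft-masking came from the reference genome, and copies were counted on both strands of its chromosomes. Intervals are 95% Wilson intervals.

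The members and gene lists were chosen with earlier results of these data known. The regions and genes to be named were the shared stretches with the largest fold change (the smaller of both replicates), up to 5 per class, the 3 with the most significant clusters, the 5 same-strand and 5 other-strand genes with the most significant clusters in both replicates, any listed gene with a shared stretch, and Dot1l and Hdac11. Others were named after their values had been seen, and so were the comparisons with 3′UTRs and gene ends. Some windows of sequence are not reported here. Alternatives covered the thresholds, the read minimum, the annotation, the order and extent of the classes, the overlap, the motif window and the repeats. Python 3.11.15 was used with pandas 2.3.3, numpy 2.4.6 and scipy 1.17.1.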

Additional observations from a re-analysis of the deposited data

How the results depend on the processing

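No paired analysis was possible because the deposited values already set each IP against the SMInput of its own number, and no test between samples was made. Of the main counts and shares, 63 alternative values stayed within 1.5 times the reported count, or within its interval, and 59 did not. Values without 1 of the replicates are not among them, since with 2 replicates they lie within the spread by construction. Counts below are in the order all members, inside other-strand genes, downstream, rest.

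With both thresholds at 3, the significant clusters fell to 6, 4 and 0 in replicate 1 for all members, other-strand and downstream, with the rest still at 2. In replicate 2 they fell to 7, 2, 5 and 0. These were 6 of 328 and 7 of 199 members, beside 1.18% and 2.42% of all clusters. No interval was calculated at this setting, so no excess of the members is read from it in either replicate. With P values adjusted by the Benjamini-Hochberg method to a false discovery rate of at most 5% they fell in replicate 1 to 13 for all members and 1 downstream, and in replicate 2 to 1 in the rest. The share of members was then 3.96% (2.33 to 6.66) and 18.1% (13.4 to 24), beside 3.24% and 10.4% of all clusters. With at least 10 IP reads they fell to 14 for all members, 3 downstream and 0 in the rest in replicate 1, and to 19, 7, 12 and 0 in replicate 2, 4.27% (2.56 to 7.04) and 9.55% (6.2 to 14.4) of members beside 3.5% and 5.09% of all clusters. With adjusted P values and with at least 10 IP reads, the interval held the share of all clusters in replicate 1 and lay above it in replicate 2. A log2(fold change) of at least 1, whole clusters outside genes, all GENCODE genes in place of the basic set and 10 kb downstream moved no significant count by over 1.5 times.

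The annotation mattered most. With RefSeq genes alone, 4429 and 2497 clusters lay outside same-strand genes, of which 250, 84, 121 and 45 were significant in replicate 1 and 422, 115, 182 and 125 in replicate 2. Outside GENCODE and RefSeq together, an alternative chosen after seeing the data, 88 and 37 clusters were left, with 4, 3, 1 and 0 significant in replicate 1 and 6, 3, 1 and 2 in replicate 2. With downstream placed before other strand, the other-strand class kept 3 and 2 significant clusters, and downstream rose to 21 in replicate 1. With 1000 bases downstream, the rest had 4 and 12. Also chosen after seeing the data, leaving out the locus at chr3:40853560-40854109 left 9 and 7 significant other-strand clusters, and the interval for all members in replicate 1 then held the share of all clusters. Keeping only centres whose 30 bases occur once left 8 other-strand clusters in replicate 1 and 3 of the rest in replicate 2.

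Counting stretches significant in at least 1 replicate with a cluster in the other gave 25, 11, 12 and 2. These include the 7, 4, 3 and 0 shared stretches. Overlap of at least 50% of both clusters left 1 downstream. By IP and SMInput reads together, the share of significant members was 0% in both replicates at 2 to 4 reads. In replicate 1 it was 1.89% at 5 to 9 reads, 29.6% at 10 to 19 and 31.8% at 20 or more, where replicate 2 had 42.1%. Counting any soft-masked base raised the share over repeats to 43.6% and 49.2%. The share of windows with a motif moved with the length of the window for each motif. Without replicate 1 or without replicate 2, the mean share of significant clusters ran from 7.93% to 22.6% for all members, 20% to 23.9% for other-strand, 7.58% to 28.6% for downstream and 1.59% to 10.9% for the rest. The cause of these changes was not tested.

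Few reads limit every count: most members had fewer than 10 IP reads, clusters of a locus share their reads, and a gap between the replicates cannot be told apart from their depth. Clusters were searched only in gene models not stated here, so clusters elsewhere, if any, were not measured.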
